A study of Mus musculus with 28 samples.

Results

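The 10 genes described here are the heat shock genes *Hspa1a*, *Hspa1b*, *Hspa8*, *Hspb1*, *Hsp90aa1*, *Dnajb1* and *Hsph1*, the heme oxygenase gene *Hmox1* and the metallothionein genes *Mt1* and *Mt2*. On GRCm38 (GENCODE vM21) *Hspa1a* lies at chr17:34969190-34972156 and *Hspa1b* at chr17:34956436-34959238, *Mt2* at chr8:94172664-94173568 and *Mt1* at chr8:94179082-94180327, *Hmox1* at chr8:75093621-75100589 and *Hspb1* at chr5:135887919-135889563. The members were chosen by name, with earlier results of these data known, and found by gene identifier. They are 10 of 44674 genes in the bulk count table. Ovaries of wildtype (WT, C57BL/6J) and Chek2-/- females about a week old were collected 6 h after whole-body irradiation with 0.5 Gy (IR) or after sham treatment at 0 Gy (non-IR). Chek2-/- females carried the Chek2tm1b(EUCOMM)Hmgu deletion allele in every cell, and no label or method says whether WT and Chek2-/- females were littermates, so that a difference in strain background cannot be told apart from one due to the allele. Paired ovaries of single females gave 24 bulk RNA-seq libraries, 6 per group, and ovaries pooled from several females gave 4 single-cell libraries, 1 per group. The comparisons ask whether these stress genes respond to a dose that kills primordial oocytes, and whether a response depends on the checkpoint kinase CHEK2.

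Heat shock proteins are chaperones that bind unfolded proteins, and heat shock factor HSF1 induces many of their genes within minutes of protein damage by binding inverted repeats of GAA. Heme oxygenase degrades heme to iron, biliverdin and carbon monoxide, is induced by oxidants through NRF2, and is high in macrophages that recycle red cells. Metallothioneins are small cysteine-rich proteins that bind zinc and copper, and MTF1 induces their genes through short metal response elements.

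The promoter stretches that hold such elements are printed because the members share them in part. RefSeq promoters (GRCm38.p6, 250 bases before to 50 after a transcription start) were at hand for 7 of the 10 members, and *Hspa8*, *Hsp90aa1* and *Hmox1* had none. Each stretch is given on the strand of its gene, with capitals for the fixed bases of a heat shock pair or for the whole match of the 3-unit element and the other motifs.
*Hspa1a*, chr17:34972249-34972264, minus strand: gctgGAAgaTTCctgg
*Hspa1b*, chr17:34959331-34959346, minus strand: gctgGAAgaTTCctgg
*Hspb1*, chr5:135887798-135887813, plus strand: aagaGAAgtTTCcaga
*Hspb1*, chr5:135887818-135887833, plus strand: ggcaGAAccTTCctgg
*Hsph1*, chr5:149636358-149636373, minus strand: atctTTCtcGAAggct
*Hsph1*, chr5:149636282-149636306, minus strand: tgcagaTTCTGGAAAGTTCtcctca
*Mt1*, chr8:94179060-94179078, plus strand: ccgctgTGCACACtggcgc
*Mt2*, chr8:94172533-94172553, plus strand: ggggtgTGACTCAGCgcgggg
The pair of *Hspa1a* and *Hspa1b* was the same 16 bases at the same place, 104 to 97 bases before the start. The 2 pairs of *Hspb1* lay 117 to 110 and 97 to 90 bases before its start. Of the 2 starts of *Hsph1*, 1 pair lay 54 to 47 bases before the downstream one and 33 to 26 before the upstream one. The second *Hsph1* stretch lay at bases 16 to 28 after the downstream and 37 to 49 after the upstream start. It is a 3-unit element made of 2 overlapping pairs, a form that 0.603% of promoters hold and no other member with a promoter did. Heat shock pairs were searched as GAANNTTC and TTCNNGAA on both strands, and 7.86% and 8.52% of all 32851 promoters of this length hold them. The stretch of *Mt1* matches TGCNCNC, a loose pattern searched here for the metal response element core, with any base as N. The *Mt1* promoter holds 3 matches and that of *Mt2* holds 6. This pattern is common, in 51.0% of all promoters, but 3 or more matches are in 7.10%. The stretch of *Mt2* is an antioxidant response element (TGACNNNGC, in 12.4% of promoters), as also found in *Dnajb1* and *Hsph1*. *Dnajb1* holds no heat shock pair in these windows. A match of letters describes the sequence and is no evidence of binding.

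Bulk libraries held 17825167 to 32605747 estimated counts, and levels are CPM (counts of a gene for each megacount of its library), with library totals scaled by TMM. *Chek2* itself checks the genotype, at 22.4 ± 1.66 CPM (SD, n = 6) in non-IR WT and 3.75 ± 0.545 in non-IR Chek2-/- ovaries, with no overlap. *Cdkn1a*, a p53 target, checks the treatment: it rose in WT ovaries by 1.67 on the log2 scale (edgeR, SE 0.128), and this change exceeded that in Chek2-/- ovaries by 1.36. A few libraries carried blood cells, with summed erythroid marker levels up to 10529 CPM in non-IR Chek2-/- ovaries against a group median of 642, and 1 irradiated WT and 1 irradiated Chek2-/- library held 1431 and 1614 CPM of neutrophil markers. In whole ovaries, fewer cells of a type and less RNA per cell cannot be told apart.

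None of the 10 members passed the test in any bulk comparison. After IR of WT ovaries edgeR called 2.41% of 26790 genes at an adjusted p of at most 0.05 but 0 of 10 members, and 0 members had an unadjusted p under 0.05, as 11.4% of genes did. In Chek2-/- ovaries 0.0112% of genes and 0 members were called, again with 0 members at an unadjusted p under 0.05, where 4.4% of genes were. The difference between these changes was called for 1.03% of genes and 0 members, of which 2, *Mt1* and *Mt2*, had an unadjusted p under 0.05, as 9.14% of genes did. Non-IR Chek2-/- against WT ovaries differed in 5.34% of genes and 0 members, with 1 member, *Mt2*, at an unadjusted p under 0.05, where 21.6% of genes were. DESeq2 called 0, 0, 0 and 1 member in these comparisons, and limma-voom 0 in each. In the last comparison DESeq2 called 2423 genes in all, where edgeR called 1430. The median log2 change of the members after IR was 0.02 in WT and -0.12 in Chek2-/- ovaries, where that of all genes was -0.00409 and 0.

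**Figure D1:**
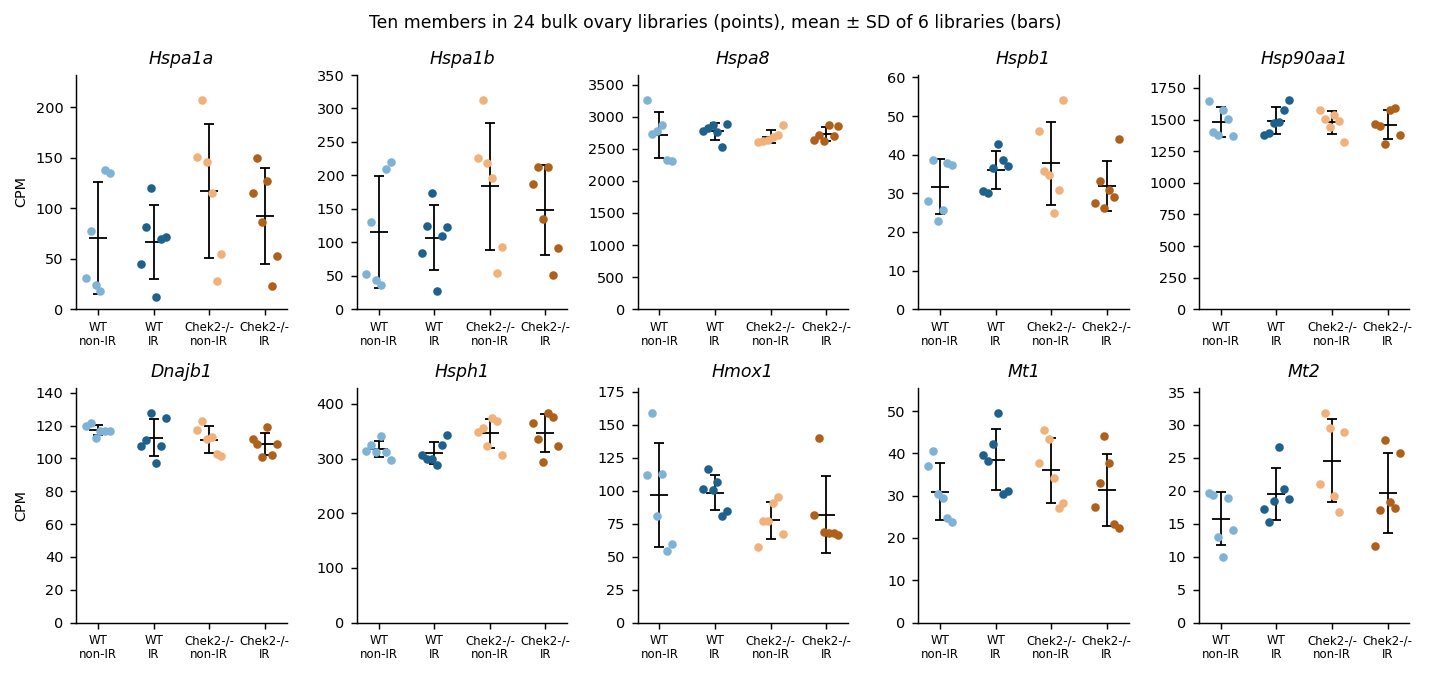
CPM of each member in the 24 bulk libraries by group, with points for libraries and bars for the mean ± SD of 6 libraries. The groups overlap in every panel, and *Hspa1a* and *Hspa1b* spread most within a group, from 12.1 to 121 CPM of *Hspa1a* in irradiated WT ovaries.

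*Hspa1a* and *Hspa1b* encode the stress-inducible HSP70. Their transcripts are alike in part (63.8% of the 31-base words of *Hspa1a* also occur in *Hspa1b*), so the split of reads between them is uncertain. The lowest, median and highest *Hspa1a* levels were 17.7, 54.2 and 138 CPM in non-IR and 12.1, 70.9 and 121 CPM in irradiated WT ovaries. They were 27.98, 130.4 and 208 CPM in non-IR and 23.2, 100.6 and 149.5 CPM in irradiated Chek2-/- ovaries. Within each group the highest library lay several-fold above the lowest, and all 4 groups overlapped. In both Chek2-/- groups replicate 5 was lowest and replicate 2 highest, and the fit did not pair same-numbered libraries. The log2 change after IR was -0.07 in WT (SE 0.545, 95% interval -1.20 to 1.05) and -0.34 in Chek2-/- ovaries (interval -1.46 to 0.77), so changes of 2-fold in either direction lay within the interval in WT. *Hspa1b* followed the same pattern, with 115 ± 84.1 CPM (SD, n = 6) in non-IR and 107 ± 49.0 CPM in irradiated WT ovaries.

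The other 4 chaperones had small changes with narrow intervals. *Hspa8*, the constitutive HSC70 that folds new proteins in every cell, had a lowest, median and highest level of 2305, 2754 and 3264 CPM in non-IR and 2523, 2799 and 2881 CPM in irradiated WT ovaries, and 2609 to 2868 CPM over all Chek2-/- libraries. The WT groups overlapped, and the log2 change was 0.03 with a 95% interval of -0.11 to 0.17. *Hsp90aa1*, the HSP90 alpha that matures kinases and steroid receptors, was at 1480.5 ± 116 CPM in non-IR and 1492 ± 108 CPM in irradiated WT ovaries (interval of the log2 change -0.12 to 0.14). *Dnajb1*, the HSP40 that delivers clients to HSP70, was at 117 ± 3.24 and 113 ± 11.4 CPM (interval -0.18 to 0.06). *Hsph1*, the HSP110 that exchanges nucleotide on HSP70, was at 317 ± 14.6 and 310.1 ± 20.5 CPM (interval -0.16 to 0.10). In Chek2-/- ovaries the changes of these 4 genes lay between -0.04 and 0.02 on the log2 scale.

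*Hspb1* encodes HSP27, a small heat shock protein that holds unfolding proteins and actin. Its lowest, median and highest levels were 22.7, 32.7 and 38.8 CPM in non-IR and 30.1, 36.8 and 42.9 CPM in irradiated WT ovaries, and 24.8, 35.2 and 54.2 against 26.2, 29.96 and 44.2 CPM in Chek2-/- ovaries. The groups overlapped, with a higher mean after IR in WT and a lower one in Chek2-/- ovaries. The highest *Hspb1* library of each group was also its highest in summed epithelial markers, and in both Chek2-/- groups this was replicate 6, with 1380.3 CPM of these markers in non-IR and 1179 CPM in irradiated ovaries. The same 2 libraries had the lowest oocyte markers, 1968 and 2205 CPM against 3347 CPM or more in the other 22, and the part of cell make-up in *Hspb1* was not tested. The 2 log2 changes, 0.18 and -0.25, differed by 0.43 (edgeR, SE 0.235, unadjusted p = 0.083, adjusted p = 0.643).

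*Hmox1* was at 54.6, 96.4 and 159 CPM (lowest, median, highest) in non-IR and 81.0, 101 and 117 CPM in irradiated WT ovaries. It was at 57.3, 77.4 and 95.1 CPM in non-IR and 66.3, 68.2 and 139.8 CPM in irradiated Chek2-/- ovaries. The highest irradiated Chek2-/- library, replicate 2, stood far above the next at 81.2 CPM, and it was the library with 1614 CPM of neutrophil markers (the other 5 held 2.68 or less) and 291 CPM of macrophage markers (the other 5 held 43.1 to 65.2). It also held 7082 CPM of erythroid markers, against 304 to 563 CPM in the other 5. Irradiated WT replicate 3, with 1431 CPM of neutrophil, 198 CPM of macrophage and 327 CPM of erythroid markers, had 100.4 CPM of *Hmox1*, close to its group median. Non-IR Chek2-/- replicate 5, with 10529 CPM of erythroid, 9.90 CPM of neutrophil and 56.3 CPM of macrophage markers, had the highest *Hmox1* of its group, 95.1 CPM. The part of blood cells in the *Hmox1* level of these libraries was not tested. Without irradiated Chek2-/- replicate 2 the log2 change in Chek2-/- ovaries went from 0.08 to -0.14, and neither value passed the test.

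The metallothioneins had a higher mean after IR in WT and a lower one in Chek2-/- ovaries, and neither change passed the test. *Mt1* was at 23.8, 29.9 and 40.5 CPM in non-IR and 30.5, 38.9 and 49.6 CPM in irradiated WT ovaries, against 27.1, 36.0 and 45.5 and then 22.4, 30.1 and 44.0 CPM in Chek2-/- ovaries. *Mt2* was at 9.93, 16.5 and 19.6 CPM and then 15.3, 18.7 and 26.7 CPM in WT, and at 16.8, 25.01 and 31.8 and then 11.6, 17.8 and 27.8 CPM in Chek2-/- ovaries. All groups overlapped, and 6 of 6 irradiated WT libraries for *Mt1* and 5 of 6 for *Mt2* lay above the non-IR median. The log2 change of *Mt1* after IR was 0.32 in WT (SE 0.172, edgeR adjusted p = 0.532) and -0.20 in Chek2-/- ovaries, a difference of 0.52 (unadjusted p = 0.0438, adjusted p = 0.525). For *Mt2* the changes were 0.30 and -0.32, a difference of 0.62 (unadjusted p = 0.0405, adjusted p = 0.510). Irradiated WT replicate 4 had the highest *Mt1* and *Mt2* of its group and also the highest summed epithelial markers, 1205 CPM against 482 to 779.7 CPM in the other 5 libraries. Without it the changes in WT were 0.24 for *Mt1* and 0.20 for *Mt2*. Non-IR WT replicate 2, highest in epithelial markers at 865 CPM, also had the highest *Mt1* of its group. In both Chek2-/- groups replicate 6 was highest in these markers. Its *Mt1*, 28.2 and 22.4 CPM, lay below the group medians, and its *Mt2*, 28.9 and 25.8 CPM, above them. The median log2 change of the epithelial markers was 0.07 in WT and -0.24 in Chek2-/- ovaries, and 0.27 for the difference. The part of epithelial cells in these changes was not tested.

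Without irradiation *Mt2* was the member that differed most clearly between genotypes. Its level was higher in Chek2-/- than in WT ovaries by 0.64 on the log2 scale (SE 0.204, 95% interval 0.22 to 1.06), with an unadjusted p of 0.00455 and an adjusted p of 0.0658 by edgeR. It passed the threshold with DESeq2 (adjusted p = 0.0241) and without non-IR Chek2-/- replicate 5 (0.0352), the library with 10529 CPM of erythroid markers and the lowest *Mt2* of its group, 16.8 CPM. The summed level of the epithelial markers, the class of cells with the highest *Mt2* level in the single-cell libraries, ranged from 659.9 to 865 CPM in these WT and from 512 to 1380.3 CPM in these Chek2-/- libraries, and its part in the difference was not tested. *Hspa1a* differed by 0.73 and *Hspa1b* by 0.67, each within an interval that included 0, and *Hmox1* by -0.32 (interval -0.76 to 0.13).

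**Figure D2:**
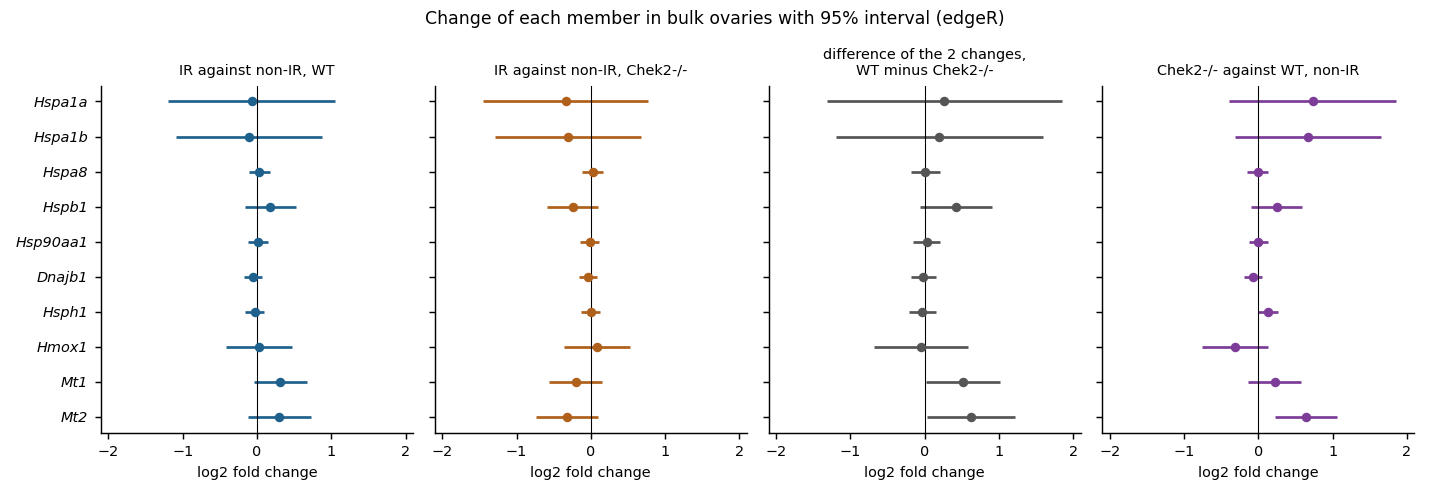
Log2 fold change of each member with its 95% interval from edgeR in 4 bulk comparisons, 6 libraries per group. Intervals of *Hspa8*, *Hsp90aa1*, *Dnajb1* and *Hsph1* are narrow and include 0, and those of *Hspa1a* and *Hspa1b* span more than 2-fold. For *Mt1* and *Mt2* the interval of the difference between genotypes lies just above 0 (edgeR adjusted p = 0.525 and 0.510). The interval of *Mt2* between non-IR genotypes is 0.22 to 1.06 (edgeR adjusted p = 0.0658).

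Some members varied more within groups than most genes of like mean level, and others did not. The SD of log2 CPM within groups was 1.14 for *Hspa1a* and 0.98 for *Hspa1b*, at percentile 99.9 of genes of like mean level, whose median SD was 0.10. It was 0.40 for *Hmox1* (percentile 98.8), 0.38 for *Mt2* (93.9), 0.32 for *Mt1* (94.6) and 0.31 for *Hspb1* (94.2). For *Dnajb1* and *Hsph1* it was 0.10 and 0.11 (percentiles 52.5 and 50.8), near the middle of genes of like level. For *Hspa8* and *Hsp90aa1* it was 0.11 and 0.10 (percentiles 18.2 and 20, among only 11 and 35 such genes).

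Variation between libraries of 1 group linked a few members. Of 45 pairs, 4 passed an adjusted p of 0.05 in a permutation test within groups (two-sided, 100000 resamples, Benjamini-Hochberg over 45), and all 4 were positive. *Hspa1a* and *Hspa1b* followed each other (Pearson r = 0.996, Spearman rho = 0.990, adjusted p = 0.00045, from the smallest p the permutations can give). These genes share reads. *Dnajb1* followed *Hspa1a* (r = 0.67, rho = 0.65, permutation adjusted p = 0.00292 and 0.0099) and *Hspa1b* (r = 0.68, rho = 0.66), and r with *Hspa1a* was 0.54 without the 2 libraries farthest from the *Hspa1a* median. *Hsp90aa1* and *Hsph1* followed each other apart from these (r = 0.77, rho = 0.77, permutation adjusted p = 0.00112 and 0.0018), with r = 0.80 without 2 libraries and 0.481 to 0.955 within single groups. *Mt1* and *Mt2*, which are neighbours on chromosome 8, did not pass (r = 0.38, rho = 0.39, permutation adjusted p = 0.374 and 0.34).

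**Figure D3:**
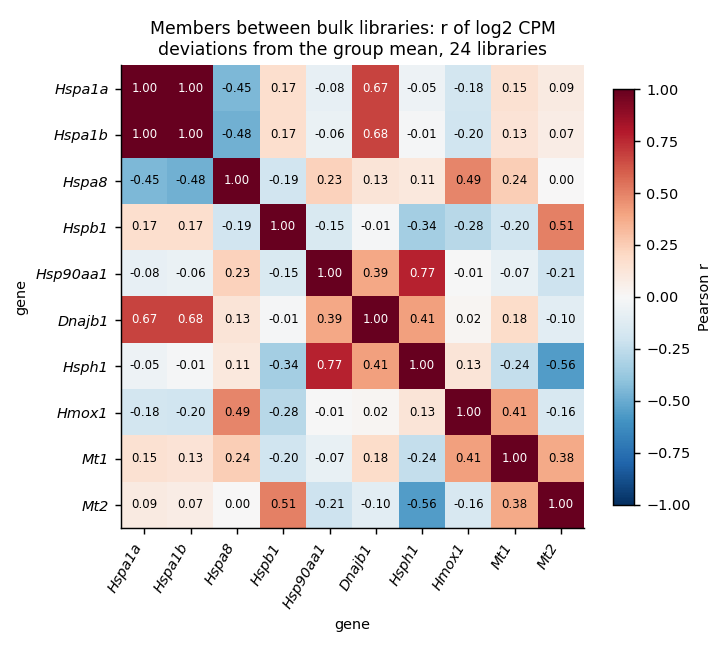
Pearson r between members over 24 bulk libraries, computed on log2 CPM after taking off the group mean. The strong pairs are *Hspa1a* with *Hspa1b* (0.996), both with *Dnajb1* (0.67 and 0.68), and *Hsp90aa1* with *Hsph1* (0.77).

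The genes whose variation was most like that of *Hspa1a*, out of 15946, were *Cyr61* (r = 0.92), *Fam46a* (0.92), *Fos* (0.91), *Adm* (0.89) and *Adamts5* (0.89), of which *Fos* and *Cyr61* are immediate early genes. The summed level of 18 immediate early genes, a list that holds *Fos* and was chosen with these results known, had r = 0.77 with *Hspa1a* over the 24 libraries. This and the relations to marker lists that follow were chosen after values were seen and are descriptions with no test. Among those most like *Hmox1* were *Ftl1* (0.87), the ferritin light chain that stores iron, *Slc40a1* (0.77), the iron exporter ferroportin, *Gtpbp1* (0.76) and *Grina* (0.76). Those most like *Mt1* were *Prr18* (0.86), *Fbxo21* (0.82), *Fhdc1* (0.81), *Dpep1* (0.81) and *Lrch1* (0.80). Summed oocyte markers had r = 0.62 with *Hsph1* and 0.65 with *Hsp90aa1* (0.62 and 0.73 without 2 libraries). Macrophage markers had r = 0.30 with *Hmox1* (-0.14 without 2 libraries), and epithelial markers had r = -0.22 with *Mt1* and 0.40 with *Mt2* (0.06 and 0.28 without 2 libraries, so that the sign turned for *Mt1*).

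The counts of other genes of these pathways called after IR were low, as was the share of all genes called, 2.41% in WT and 0.0112% in Chek2-/- ovaries (11.4% and 4.4% at an unadjusted p under 0.05). Of 45 further chaperones, co-chaperones and heat shock factors, 0 were called after IR in either genotype (edgeR, 0 at an unadjusted p under 0.05 in both), with a median log2 change of 0.00245 in WT. None of 21 endoplasmic reticulum stress genes, 24 heme, iron and NRF2 genes and 11 metal response genes was called after IR in either genotype (3, 3 and 1 at an unadjusted p under 0.05 in WT, and 1, 0 and 1 in Chek2-/- ovaries), and their median log2 changes in WT were 0.03, -0.04 and 0.06. Of 18 immediate early genes 1 rose in WT, *Btg2*, which is also a p53 target (log2 1.02, SE 0.143, edgeR adjusted p = 4.01e-05), and the list had a median of 0.22 in WT. Between non-IR genotypes, where 5.34% of all genes were called, 5 of the 45 chaperone genes were higher in Chek2-/- ovaries (*Dnajb4* by 0.35, *Chordc1* by 0.31, *Cacybp* by 0.24, *Hspd1* by 0.21 and *Hspa4* by 0.15 on the log2 scale). The endoplasmic reticulum list had *Calr*, a calcium-binding chaperone, at -0.14, and the heme and iron list had *Bach1*, a repressor of *Hmox1*, higher by 0.26. The metal list had the zinc transporters *Slc30a4* and *Slc39a10* higher by 0.32 and 0.20. In the same comparison 10 of 18 immediate early genes were higher, among them *Klf6* (0.67), *Egr2* (1.24), *Atf3* (1.15), *Egr1* (1.16) and *Ier2* (0.54), with a list median of 0.62.

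The single-cell libraries placed the members in cell classes. Ovaries had been digested with collagenase and then trypsin before capture, and of 40594 barcodes 36524 cells were used, 8697 to 9779 per library with a median of 13908 to 17135 UMIs. Between 83 and 127 barcodes per library also occurred in another library. Clusters were named from marker lists as oocyte-, granulosa-, fibroblast-, perivascular smooth muscle-, pericyte-, endothelial-, epithelial- and macrophage-like, and 161 cells led by haemoglobin genes were left unnamed. The macrophage-like class also had mast cell and neutrophil genes among its leading genes. Levels are CPM of all UMIs of a class, and with 1 library per group no test was possible. The ranges below are over the 4 libraries, which differ in genotype and irradiation.

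**Figure D4:**
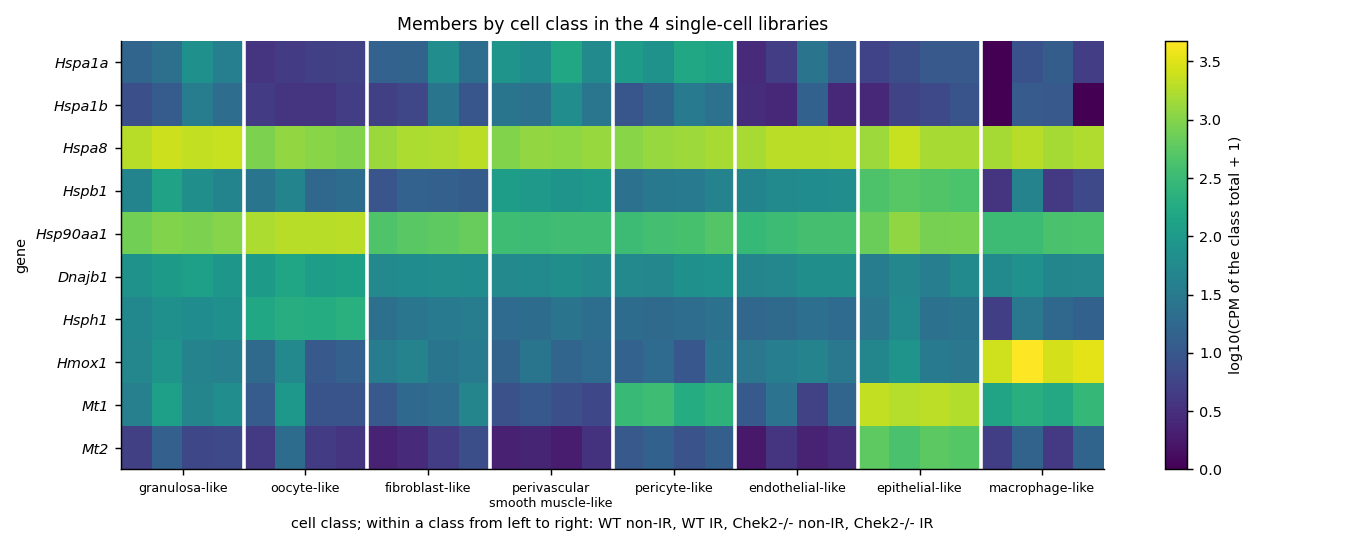
Level of each member (log10 of CPM plus 1) by cell class and single-cell library. *Hmox1* peaks in macrophage-like cells (mean 3381 CPM), *Hspb1*, *Mt1* and *Mt2* in epithelial-like cells (469, 1978 and 523 CPM), *Hsp90aa1* and *Hsph1* in oocyte-like cells (1869.9 and 189 CPM), and *Hspa1a* in pericyte- and smooth muscle-like cells (119 and 86.3 CPM).

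Several members were marked by 1 cell class. *Hmox1* averaged 3381 CPM (2582 to 4759) in macrophage-like cells, 64.5 times the next class, granulosa-like cells at 52.4 CPM (38.5 to 78.9). *Mt1* averaged 1978 CPM (1800.2 to 2209) in epithelial-like cells, 7.38 times pericyte-like cells at 268 CPM (187 to 346), and macrophage-like cells overlapped the latter at 199 CPM. *Mt2* had by far its highest level in the same epithelial-like cells, at 523 CPM (420.2 to 586) against 10.48 CPM or less as the mean of any other class. Over all libraries 12196 of its UMIs were in these cells, 2156 in granulosa-, 922 in fibroblast- and 434 in oocyte-like cells. The ratio of *Mt1* to *Mt2* UMIs therefore varied by class, from 3.85 in epithelial- and 4.05 in oocyte-like to 21.8 in macrophage- and 25.1 in pericyte-like cells. These ratios pool all libraries, and those of macrophage- and pericyte-like cells rest on 26 and 63 *Mt2* UMIs. In oocyte-like cells few barcodes of irradiated WT held most UMIs of both genes, as described below. *Hspb1* was also highest in epithelial-like cells, at 469 CPM (425 to 529.7), 5.05 times smooth muscle-like cells, where HSP27 is a known actin partner.

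Oocyte-like cells were the class with the highest RNA levels of *Hsp90aa1* and *Hsph1*. *Hsp90aa1* averaged 1869.9 CPM (1653 to 1972), 2.07 times granulosa-like cells at 905 CPM (780.4 to 1006), and *Hsph1* averaged 189 CPM (159.9 to 214), 3.03 times granulosa-like cells. *Dnajb1* was also highest there, at 120.1 CPM, but overlapped granulosa-like cells at 95.4 CPM. *Hspa8* had its lowest mean in the same cells, at 1027 CPM (901 to 1209), and overlapped its neighbour in the order, smooth muscle-like cells at 1138 CPM. Its highest mean was 2242 CPM in granulosa-like cells.

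*Hspa1a* was highest in pericyte-like (119 CPM, 74.97 to 161) and smooth muscle-like cells (86.3 CPM, 53.9 to 152), followed by granulosa-like (36.1) and fibroblast-like cells (27.7). It was lowest in oocyte-like cells at 3.58 CPM (2.70 to 4.09). Every class overlapped its neighbour in this order. *Hspa1b* had smooth muscle-like cells first (34.8 CPM) and oocyte-like cells last (3.08 CPM).

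In granulosa-like cells several members were higher in the irradiated WT library. Of 10 members 5 were at least 1.5-fold higher, where 2.88% of 13381 genes were. From these libraries the authors had reported a change of *Hspb1* after IR in WT pregranulosa cells. They had also reported *Hmox1*, *Mt1*, *Hspb1* and *Hsp90aa1* in possible epithelial pregranulosa cells. With members known from the same cells, this count is a description only. *Hspb1* was higher, from 44.3 to 132 CPM (ratio 2.98, 95% limits 2.86 to 3.10), *Mt1* from 39.2 to 119 CPM (3.05), *Mt2* from 3.98 to 12.6 CPM (3.17, 2.78 to 3.63), *Hmox1* from 49.7 to 78.9 CPM (1.59) and *Hspa1b* from 6.87 to 10.8 CPM (1.57). All limits given for single cells cover counting error only and no difference between animals. In the Chek2-/- libraries 1.04% of genes and 0 of 10 members were at least 1.5-fold higher after IR. At least 1.5-fold lower were 1.67% of genes and 3 of 10 members, *Hspa1a*, *Hspa1b* and *Hspb1*. There *Mt1* had a ratio of 1.34, *Mt2* 1.01 and *Hmox1* 0.902, while *Hspb1* was lower, at 0.667 (66.8 to 44.5 CPM). The make-up of the class also differed, since the cluster led by *Cst12*, in which *Hspb1* was highest, held 794 of 3009 cells in non-IR and 1301 of 3585 in irradiated WT, and the pooled *Hspb1* ratio exceeded that of every single cluster.

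For *Mt1*, *Mt2*, *Hspb1* and *Hmox1* the largest ratios lay in 1 of 4 granulosa-like clusters, that led by *Cst12*, *Crygb* and *Dmrta1*. In it *Mt1* went from 39.4 to 271 CPM (ratio 6.88, limits 6.34 to 7.47; 794 and 1301 cells), *Hspb1* from 116 to 333 CPM (2.87), *Hmox1* from 68.0 to 138 CPM (2.02) and *Mt2* from 8.01 to 30.1 CPM (3.76). In the larger *Amh*-led cluster and in the dividing cluster *Mt1* had ratios of 1.09 and 1.06 and *Hspb1* of 1.45 and 1.403. In the fourth cluster, led by *Akr1c18* and *Hsd3b1*, *Hspb1* and *Hmox1* were lower (0.555 and 0.645). There 10 of 296 non-IR cells held 67.3% of the *Hspb1* and 56.4% of the *Hmox1* UMIs, and the median *Hmox1* level per cell was 0 in non-IR and 40.002 CPM in irradiated WT. In the Chek2-/- libraries the *Cst12* cluster had ratios of 0.993 for *Mt1*, 0.923 for *Hspb1* and 1.10 for *Hmox1*. The 90th percentile of *Mt1* over single cells of this cluster was 524 CPM in the irradiated WT library and 75.3 to 90.6 CPM in the others, while the median was 0 in all 4.

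Some of these barcodes also held genes from the marker lists of other classes. Barcodes outside the epithelial- and macrophage-like classes were counted as mixed where their summed epithelial or macrophage markers exceeded 10% of the median of that class. In the *Cst12* cluster 19.7% of barcodes were mixed in the irradiated WT library and 8.19% to 8.48% in the other 3. In the cluster led by *Akr1c18* and *Hsd3b1* the share was 20.6% in non-IR and 20.4% in irradiated WT. There it was 13.1% in non-IR and 11.8% in irradiated Chek2-/-. Without mixed barcodes the ratios in this cluster in WT were 5.50 for *Mt1* (limits 4.98 to 6.08), 3.32 for *Mt2*, 2.24 for *Hspb1* and 1.81 for *Hmox1*. Over all granulosa-like cells they were 2.12, 2.34, 2.31 and 1.43. The epithelial list holds *Krt8*, which was a leading gene of a *Cst12*-led granulosa-like cluster at a clustering resolution of 1.0. The authors also describe granulosa cells with epithelial markers, possibly left from embryonic pregranulosa cells. Granulosa-like cells that express such genes themselves would also count as mixed, and their share was not tested. The part of RNA or cells of other classes in the remaining ratios was not tested.

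With all barcodes kept, the WT ratios of *Mt1*, *Mt2* and *Hmox1* in oocyte-like cells were larger than in granulosa-like cells and that of *Hspb1* was smaller. Most oocyte-like UMIs of *Mt1*, *Mt2* and *Hspb1* after IR came from few barcodes. Here 4 of 10 members were at least 1.5-fold higher after IR in WT, where 11.7% of 12361 genes were: *Mt1* (10.9 to 91.3 CPM, ratio 8.38, limits 7.40 to 9.52), *Mt2* (5.88), *Hmox1* (17.9 to 52.8 CPM, 2.96) and *Hspb1* (1.71). The libraries were unlike in depth, with 194 cells of a median of 181838 UMIs in non-IR and 161 cells of a median of 17555 UMIs in irradiated WT, and the summed epithelial markers in them were 189 and 379 CPM. The 10 highest of the 161 cells held 93.3% of the *Mt1*, 89.7% of the *Mt2* and 75.5% of the *Hspb1* UMIs, and the median *Mt1* level per cell was 0 in both libraries. Without mixed barcodes (18 of 161 cells, 0 to 1 in the other libraries) the ratio of *Mt1* was 1.74 (limits 1.46 to 2.07), that of *Mt2* 1.47 (1.04 to 2.06), and that of *Hspb1* turned to 0.707 (0.606 to 0.822). The ratios of *Mt1* and *Mt2* then lay below those of granulosa-like cells without mixed barcodes. The filter took cells almost only from the irradiated WT library. Its epithelial markers are those of the class highest in *Mt1*, *Mt2* and *Hspb1*, so a fall of these ratios could be foreseen. Its limit is in CPM, which fewer UMIs reach in shallower cells, so this order is a description only.

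For *Hmox1* the 10 highest oocyte-like cells of irradiated WT held 31.9% of its UMIs, and without mixed barcodes its ratio was 2.59 (limits 2.29 to 2.92). A UMI of *Hmox1* was seen in 55.3% of these cells and in 65.5% of the deeper non-IR cells. In a new clustering of cells with at least 2000 genes the class held 100 irradiated and 183 non-IR cells, and the ratio was 2.96. Granulosa-like cells of the irradiated library held *Hmox1* at 78.9 CPM, above the 52.8 CPM of its oocyte-like cells, and the part of free RNA was not tested. In the Chek2-/- libraries its ratio was 1.27 (1.01 to 1.61), and 0 of 8 members with at least 100 UMIs were 1.5-fold higher, where 5.41% of genes were. The chaperones moved less in oocyte-like cells of WT, with ratios of 1.44 for *Dnajb1*, 1.34 for *Hspa8*, 1.21 for *Hsph1* and 1.18 for *Hsp90aa1*. *Hspa1a* and *Hspa1b*, which had their lowest class mean there, had ratios of 1.32 (limits 0.897 to 1.92) and 0.773 (0.510 to 1.15).

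Epithelial-like cells had another set. Of 8 members with enough UMIs 4 were at least 1.5-fold higher in the irradiated WT library, where 6.82% of 9624 genes were, and these were chaperones and *Hmox1*: *Hsph1* (27.8 to 57.2 CPM, ratio 2.06, limits 1.70 to 2.50), *Hspa8* (1369 to 2323 CPM, 1.70), *Hmox1* (1.67) and *Hsp90aa1* (712 to 1165 CPM, 1.64). *Mt1* and *Mt2*, which these cells express most, were lower, at 0.849 and 0.718. In Chek2-/- epithelial-like cells *Dnajb1* alone passed 1.5-fold (1.54), where 2.06% of genes did, and *Hspa8*, *Hsp90aa1* and *Hsph1* had ratios of 1.01, 1.03 and 1.09.

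**Figure D5:**
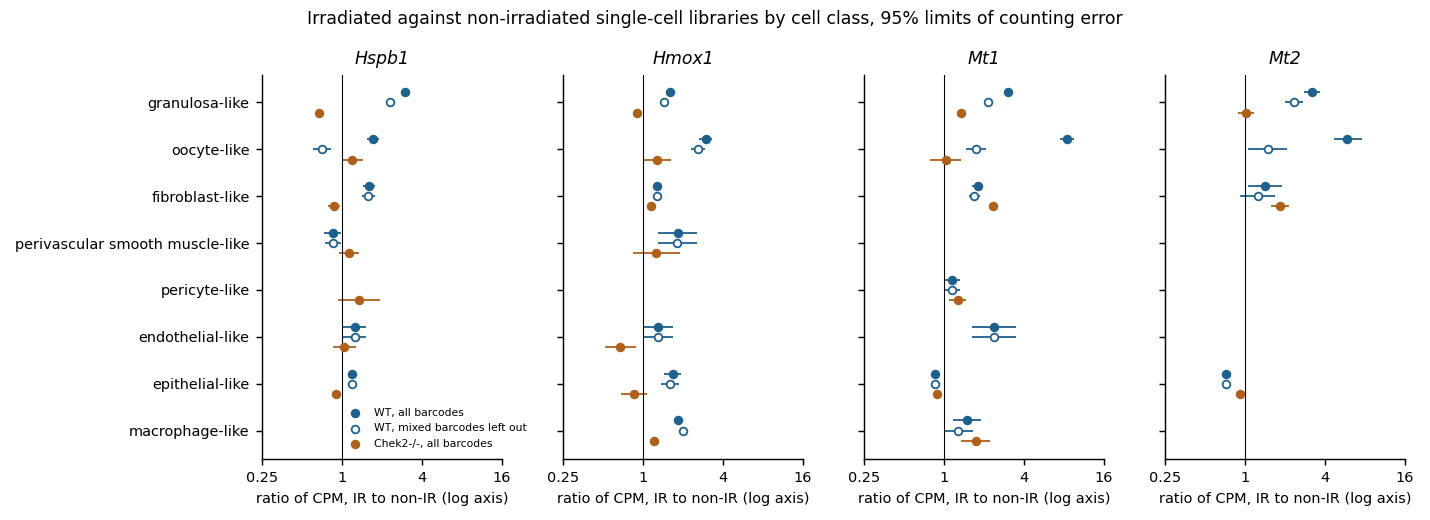
Ratio of CPM in the irradiated to the non-IR single-cell library by cell class for *Hspb1*, *Hmox1*, *Mt1* and *Mt2*, on a log axis with 95% limits of counting error, for members with at least 100 UMIs. Open points leave out mixed barcodes in WT, which takes *Mt1* in oocyte-like cells from 8.38 to 1.74 and *Hspb1* there from 1.71 to 0.707.

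In fibroblast-like cells 2 of 10 members were at least 1.5-fold higher after IR in WT (*Mt1* 1.78 and *Hspb1* 1.60, at 1.54% of 12951 genes). In Chek2-/- 2 of 10 were higher (*Mt1* 2.33 and *Mt2* 1.81, at 1.61% of genes) and 2 were lower (*Hspa1a* and *Hspa1b*, at 0.681% of genes). *Mt1* levels were low there, 9.65 to 17.2 CPM in WT and 19.9 to 46.4 CPM in Chek2-/-. Of the 3237 *Mt1* UMIs of irradiated Chek2-/- fibroblast-like cells, 1400 were in the cluster led by *Sct*, *Hhip* and *Cyp11a1* (810 of 4278 cells) and 1303 in a dividing cluster led by *Hhip* (903 cells), with ratios after IR of 1.82 and 2.77. At a clustering resolution of 1.0 an unnamed cluster led by *Cyp11a1*, a steroid-producing enzyme, held 29 cells in non-IR and 26 in irradiated WT, and 106 and 160 in Chek2-/-, so the make-up of the class differed between libraries and its part in the ratios was not tested. In macrophage-like cells *Hmox1* went from 2582 to 4759 CPM in WT (ratio 1.84, limits 1.75 to 1.94) and had a ratio of 1.21 in Chek2-/-. The class was not of 1 make-up, since its summed neutrophil markers were 4143 CPM in non-IR and 933 CPM in irradiated WT, and 8029 and 1.81 CPM in Chek2-/-. *Hspa8* was higher in the irradiated WT library in each of the 8 named classes, by ratios of 1.21 to 1.70. Over all cells it was at 1484 CPM in non-IR WT, below the other 3 libraries (2040.2 CPM in irradiated WT, 1869.9 CPM in non-IR and 2026 CPM in irradiated Chek2-/-), so the non-IR WT library stood apart from both Chek2-/- libraries too.

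*Hspa1a* and *Hspa1b* set the non-IR Chek2-/- library apart from the other 3, as a difference between single libraries. Over all cells *Hspa1a* was at 13.9 CPM in non-IR and 17.3 CPM in irradiated WT, 62.1 CPM in non-IR and 28.1 CPM in irradiated Chek2-/-. Against non-IR WT the ratio was 4.80 (limits 4.49 to 5.13) in granulosa-like and 4.72 (4.39 to 5.07) in fibroblast-like cells, 1.91 in smooth muscle-like and 1.56 in pericyte-like cells. *Hspa1b* had ratios of 5.00 and 6.35 in the first 2 classes. In granulosa-like cells 4 of 10 members were at least 1.5-fold higher (also *Hspb1* 1.51 and *Dnajb1* 1.53), where 1.51% of genes were, and in fibroblast-like cells 5 of 10 (also *Mt2* 2.94, *Mt1* 2.06 and *Hspb1* 1.51), where 1.54% were. After IR *Hspa1a* was lower again in Chek2-/- cells, at 0.542 in granulosa-like and 0.323 in fibroblast-like cells. Summed immediate early genes did not follow it, at 5567 CPM in non-IR WT and 5599 CPM in non-IR Chek2-/- granulosa-like cells and at 11453 and 6692 CPM in fibroblast-like cells. In bulk the highest *Hspa1a* library was 7.42 times the lowest within non-IR Chek2-/- and 7.80 times within non-IR WT ovaries. The 95% interval of the bulk log2 difference between these groups, -0.395 to 1.85 (edgeR), included 0. With 1 library per group, the single-cell ratios cannot tell a genotype difference from variation between samples. Ovaries were digested before capture, and the part of this step in *Hspa1a* and *Hspa1b* levels was not tested.

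Levels of the bulk libraries (estimated counts over whole transcripts) and of the cells (UMIs) are not on 1 scale, so the values below are to be compared only within an assay. In bulk *Hmox1* had means of 96.5 and 98.5 CPM in non-IR and irradiated WT ovaries, and in the pooled cells 48.2 and 86.0 CPM. *Hspb1* had 31.7 and 36.0 CPM in bulk and 40.5 and 94.9 CPM in the cells, and *Mt1* 30.97 and 38.5 CPM against 84.0 and 157 CPM. The cell data are 1 library per group. Epithelial-like cells, the class highest in *Hspb1* and *Mt1*, were 176 of 9277 cells in non-IR and 305 of 9779 in irradiated WT. The part of this make-up in the pooled values was not tested.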

How the data were processed

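Members and gene lists were chosen with earlier results of these data known. Bulk reads were quantified by the authors with nf-core/rnaseq (Trim Galore 0.6.5, Salmon 1.3.0, FastQC 0.11.9 and MultiQC 1.9, build mm10, per the labels), and the deposited values are estimated counts per gene. Single-cell reads were aligned by the authors to mm10 with Cell Ranger, and the deposited values are counts of UMIs per gene and barcode. Here the estimated counts were rounded, a gene needed at least 10 of them in all, and edgeR 4.0.16 in R 4.3.3 fitted the 26790 genes that remained (TMM, quasi-likelihood, 1 coefficient per group, Benjamini-Hochberg). The alternatives included DESeq2 1.42.0 and limma-voom 3.58.1. The fit was tested on simulated data with known changes.

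A cell was kept with at least 1000 genes, at most 20% of UMIs mitochondrial and at most 50% ribosomal, and Scrublet removed 4.02% to 5.47% of cells per library as doublets (scanpy 1.11.5, Python 3.11.15). Clustering used 2000 variable genes without the members and their pathway lists, 30 components, 15 neighbours and Leiden at 0.5. Clusters were named where 60% of a marker list, and at least 3 markers, were in 25% of cells at 2-fold. Ratios took members with at least 100 UMIs over both libraries, with exact binomial limits at 95%.

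Members were named in every comparison, of each pathway list the 5 called genes of smallest adjusted p, and for *Hspa1a*, *Hmox1* and *Mt1* the 5 genes of highest r with a mean of at least 1 CPM. 1 gene that this rule names is not reported here. Bulk replicates are single females, and no 2 of a group were copies, with a chi-square relative to its degrees of freedom between 6.25 and 60.5. In a bulk library 3 counts were worth 0.0931 to 0.168 CPM. The authors' doublet removal and batch integration were not repeated.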

Additional observations from a re-analysis of the deposited data

Results flagged for a closer look

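In each of the 4 bulk groups the highest and lowest library of each member was set against Dixon's critical value for 6 samples, and 2 of 40 groups stood out, where chance flags about 1 in 20. *Hspa8* was lowest in irradiated WT replicate 5, at 2523 CPM, with the next library at 2755 CPM. *Hmox1* was highest in irradiated Chek2-/- replicate 2, at 139.8 CPM, with the next library at 81.2 CPM. Without that library the log2 change in Chek2-/- ovaries was -0.14.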

How the results depend on the processing

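No member was called under any bulk alternative except *Mt2* between non-irradiated genotypes, with DESeq2 (0.63, adjusted p = 0.0241) and without non-irradiated Chek2-/- replicate 5 (0.73, edgeR adjusted p = 0.0352). Counts of called genes in the order WT, Chek2-/-, difference between genotypes and non-irradiated genotypes were 646, 3, 277 and 1430. They were 14, 458 and 2423 in the last 3 with DESeq2, 288, 1, 167 and 211 with a 2-fold limit added, and 1 and 785 in the second and last when only the groups compared were fitted. Leaving out 1 library gave 516 to 657, 2 to 4, 221 to 323 and 573 to 1794. The last count was 675, 716 and 573 without non-irradiated WT replicate 2, 3 and 4, and 807 without non-irradiated Chek2-/- replicate 1. With the replicate block, 1 effect per number for both genotypes, the counts were 661, 4, 281 and 2025 and no member was called. Same-numbered libraries of WT and Chek2-/- correlated only from 0.0225 to 0.123 in non-IR and -0.194 to 0.190 in irradiated ovaries. The block therefore cannot fully take off a likeness within Chek2-/- alone. Same-numbered libraries correlated from -0.0469 to 0.397 in WT and 0.0577 to 0.657 in Chek2-/- ovaries. A library correlated best with its own number in 1 of 6 and 4 of 6 pairs. The main fit took no pairs, although same-numbered Chek2-/- libraries were in part alike. Its intervals for the change in Chek2-/- ovaries leave this likeness out. For example, *Hspa1a* in replicate 5 lay -1.78 and -1.75 on the log2 scale from the 2 Chek2-/- group means. The permutation test of member pairs also treated the 24 libraries as independent.

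Values near 0 changed sign. *Hsph1* in Chek2-/- ovaries was -0.00184 and -0.00183 with DESeq2 size factors and the DESeq2 test, -0.00241 with limma-voom, -0.00398 and -0.00375 with filterByExpr and no filter, -0.00167 with the replicate block and -0.00564 with only 2 groups. With limma-voom *Hspa1a* and *Hspa1b* in WT were 0.13 and 0.0908, and the *Hmox1* difference was 0.0777 (0.073 with the block). *Hsp90aa1* between non-irradiated genotypes was 0.000489 with filterByExpr and 0.00128 with no filter.

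Leaving out 1 library gave ranges that cross 0 in WT for *Hspa1a* (-0.32 to 0.24), *Hspa1b* (-0.29 to 0.19), *Hspa8* (-0.00880 to 0.0978), *Hsp90aa1* (-0.00915 to 0.0514) and *Hmox1* (-0.0815 to 0.23). In Chek2-/- ovaries they do so for *Hsp90aa1* (-0.0485 to 0.00848), *Hsph1* (-0.0401 to 0.0383) and *Hmox1* (-0.14 to 0.15). For the difference they do so for *Hspa1b* (-0.0104 to 0.49), *Hspa8* (-0.0312 to 0.0755), *Dnajb1* (-0.0549 to 0.0328), *Hsph1* (-0.0545 to 0.0240) and *Hmox1* (-0.16 to 0.18), and between non-irradiated genotypes for *Hspa8* (-0.0555 to 0.0512) and *Hsp90aa1* (-0.0253 to 0.0338). The cause was not tested.

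In single cells, 18 ratios of members in WT were at least 1.5-fold from 1. They were 18 with resolution 1.0, 18 with doublets kept, 18 with pathway genes among the variable genes, 16 with at least 2000 genes per cell and 15 without mixed barcodes, a filter chosen after seeing the data. Single ratios of any comparison moved beyond their counting limits in 12 of 186, 18 of 186, 0 of 186, 7 of 185 and 16 of 185 cases, in the same order. With 1 library per group, depth limits only the counting error, and no difference between animals can be estimated.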

Other observations

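Beside the cell classes named above, *Mt1* in endothelial-like cells had 10.1 CPM in non-IR and 23.8 CPM in irradiated WT (ratio 2.36, limits 1.62 to 3.50). In Chek2-/- it had 4.19 CPM in non-IR and 14.98 CPM in irradiated cells, on 13 and 53 UMIs, too few for a ratio here. *Hmox1* in smooth muscle-like cells of WT had 14.1 and 25.6 CPM (1.82, 1.299 to 2.56). In pericyte-like cells, the second class by *Mt1* level, *Mt1* had ratios of 1.14 in WT and 1.26 in Chek2-/-, and it was lower in non-IR Chek2-/- than in non-IR WT (0.618, limits 0.534 to 0.715). In oocyte-like cells *Hmox1* (0.547, limits 0.444 to 0.671) and *Hspb1* (0.616, limits 0.522 to 0.723) were at least 1.5-fold lower in non-IR Chek2-/- than in WT, as were 1325 of 12053 genes. In epithelial-like cells *Hmox1* had a ratio of 0.688 (limits 0.562 to 0.841). These are single libraries with counting error only.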
